A study of Mus musculus with 7 samples.

Results

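FRA2 and JUND were compared in STHdhQ111 (Q111) at positions where both proteins had a listed event. Q111 is a striatal cell line with an expanded glutamine tract in huntingtin. The listed events cover Q111 and the comparison line together, and 22665 of the pairs described below were marked present for both proteins in Q111. A binding event, the unit of the tables, is a single base at which reads of a chromatin immunoprecipitation were placed by the event caller. Each FRA2 event was paired with the JUND event within 100 bp when each was the nearest event of the other. This gave 35176 pairs, which held 54.5% of 64579 events for FRA2 and 75.5% of 46583 for JUND, out of 137595 events of all proteins in the series. The compared quantity is the log2 ratio of FRA2 to JUND reads in Q111, with 0.5 reads added to each, minus the median of this ratio over all pairs. A pair is called FRA2-rich or JUND-rich when its ratio lay at least 2-fold above or below that median and a two-sided exact binomial test of its reads, adjusted by the Benjamini-Hochberg method over all 35176 pairs, gave p below 0.05.

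FRA2, encoded by Fosl2, belongs to the FOS family, and JUND to the JUN family. Proteins of both families carry a basic region that contacts DNA and a leucine zipper through which they dimerise, and the dimer is known as AP-1. FOS proteins bind DNA as partners of JUN proteins, whereas JUN proteins can also pair among themselves or with ATF proteins. In the brain, AP-1 is known as a factor induced by neuronal activity and stress, and JUND as one of its more constantly present subunits.

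The Q111 line derives from striatal cells of embryos (embryonic day 14) of strain 129SvEv/CD1 and has the genotype HdhQ111/Q111. The comparison line STHdhQ7 (Q7) has the same origin and the genotype HdhQ7/Q7, and its libraries are used below only to follow the same pairs. All cells had undergone less than 15 passages, and all were kept at 33 °C and shifted to 39 °C during the last 2 days to halt division. The antibodies were sc-604x against FRA2 and sc-74x against JUND. Each antibody and line is represented by 1 library in which replicates 1 and 2 were pooled, so no difference given here has a replicate check, and every test compares single libraries and covers counting error only. The tables hold no expression values, so the striatal identity of the cells could not be checked against markers, and the labels do not say whether a line is 1 clone. Reads in events came to 3498922 for FRA2 and 1609483 for JUND in Q111, of which 76.4% and 83.2% lay in paired events. Control reads in Q111, the background track deposited with each table, averaged 6.23 per pair in the FRA2 table and 6.66 in the JUND table.

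FRA2 and JUND reads rose together from pair to pair. A pair held a median of 52 FRA2 reads (quartiles 28 and 97) and 30 JUND reads (quartiles 19 and 47). Across pairs, which share the same 2 libraries and are not replicates, the Pearson r of log2 reads was 0.811 and the Spearman rho of reads 0.777. The median pair had 1.86 times as many FRA2 as JUND reads, a value that contains the efficiency of each antibody and the depth of each library, so only departures from it are read below. The FRA2 and JUND positions lay a median of 14 bp apart, and 38.9% of pairs were within 10 bp.

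**Figure D1:**
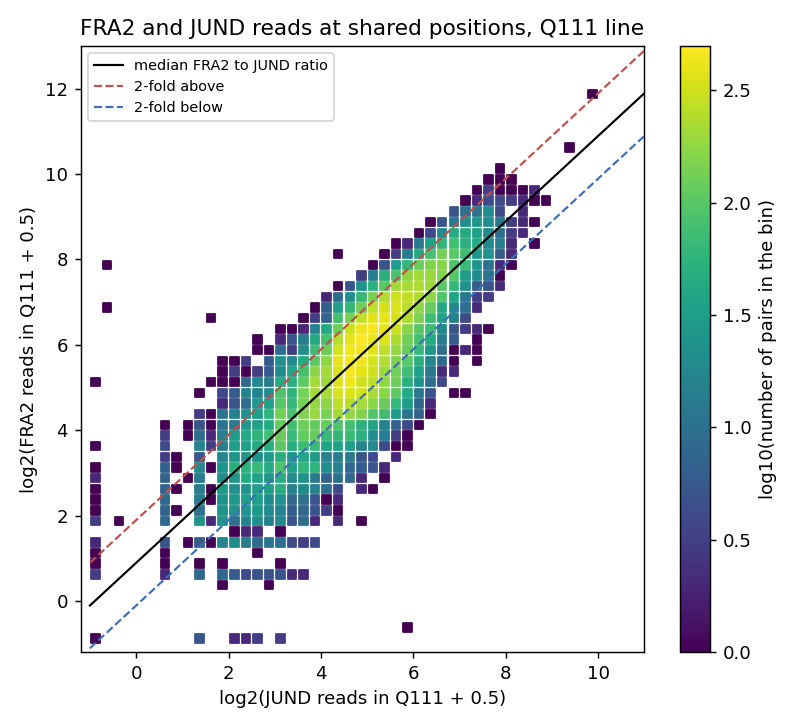
Each square is a bin of pairs placed by log2(JUND reads + 0.5) on the x axis and log2(FRA2 reads + 0.5) on the y axis in Q111, and its colour gives log10 of the number of pairs. The black line marks the median FRA2 to JUND ratio of 1.86, the dashed lines 2-fold departures from it. The cloud is steeper than the black line: pairs with many reads lie mostly above it and pairs with few reads mostly below it.

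Most shared positions carried FRA2 and JUND in a similar proportion. Within 2-fold of the median ratio lay 80.4% of pairs, with quartiles of -0.60 and 0.48 on the centred log2 scale and a 5th and 95th percentile of -1.52 and 1.05. JUND-rich pairs numbered 3739, which is 10.6% of the pairs (Wilson interval 10.3 to 11%), and FRA2-rich pairs 1795, or 5.10% (4.88 to 5.34%). Among JUND-rich pairs the median departure was 2.65-fold and 488 departed at least 4-fold, while among FRA2-rich pairs the median was 2.29-fold and 38 departed at least 4-fold. Beyond these, 4607 pairs passed the exact binomial test after adjustment with a departure under 2-fold, and 388 FRA2-rich pairs lay between 2.0 and 2.1-fold against 465 just below the limit, between 1.9 and 2.0-fold.

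The share of calls on each side depended on the centre and on the assumed spread. With libraries scaled by all reads in events, which puts the median pair at -0.23, 714 pairs were FRA2-rich and 5577 JUND-rich, so that FRA2-rich pairs made up 11.3% of calls in place of 32.4%. With the median of the highest of 4 equal groups by reads as the centre, which puts the median pair at -0.38, the numbers were 361 and 7068. When reads were allowed to vary beyond counting error, with a dispersion of 0.05 per library, 5 FRA2-rich and 216 JUND-rich pairs were called.

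The called classes differed in how much of each protein they carried. A FRA2-rich pair had a median of 115 FRA2 reads (quartiles 79 and 166.5) and 26 JUND reads (17.6 and 38). A JUND-rich pair had a median of 25 FRA2 reads (18 and 34) and 37 JUND reads (27.4 and 50). Pairs not called had 55 and 29. The JUND quartiles of the called classes overlapped, while the FRA2 quartiles did not. The classes were cut on these same reads, by a test that passes more readily where reads are many. The contrast is therefore a description of the calls. JUND reads equalled or exceeded FRA2 reads at 16.9% of all pairs, an uncentred count that contains antibody efficiency and library depth.

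The ratio was higher at positions with more reads. Pairs were split by FRA2 plus JUND reads into 10 groups of equal size, group 1 holding the fewest. In group 1, with medians of 9 FRA2 and 7 JUND reads, the median centred log2 ratio was -0.55. In group 10, with medians of 222 FRA2 and 95.5 JUND reads, it was 0.40, and the values climbed without a step back from group 3 on. FRA2-rich pairs made up 0.17% of group 1 and 11.4% (10.4 to 12.5%) of group 9. JUND-rich pairs were most frequent in group 3, at 20.8% (19.5 to 22.2%), and made up 1.11% of group 10. Control reads moved with this order as a share of the signal: in group 1 they averaged 61.7% of FRA2 and 84.7% of JUND reads, and in group 10 2.88% and 7.44%. The groups are made from the same reads as the ratio, mostly FRA2 reads, which by itself ties a higher ratio to a higher group. The test also needs a larger departure to pass where reads are few. Low called shares in the lowest groups are therefore no measure of how rare such departures are there. Grouped by their reads in Q7, a split chosen after seeing the data, the pairs had a median Q111 ratio of -0.32 in group 1, -0.46 in group 3 and 0.44 in group 10. Their median FRA2 plus JUND reads in Q111 were 78, 52 and 262, so the lowest group by Q7 reads was not the weakest in Q111. In that split FRA2-rich shares were 1.82%, 1.65% and 10.6%, and JUND-rich shares 13.5%, 20.5% and 1.19%. Subtracting control reads gave 2834 FRA2-rich and 4481 JUND-rich pairs, and centring within each of the 10 groups gave 1280 and 2886.

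Strong positions still differed from each other by more than counting error. In group 10 the centred log2 ratio had a standard deviation of 0.51 over pairs, where the reads alone give 0.18. In group 1 the values were 0.97 and 0.81, so that little can be read from single weak pairs.

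**Figure D2:**
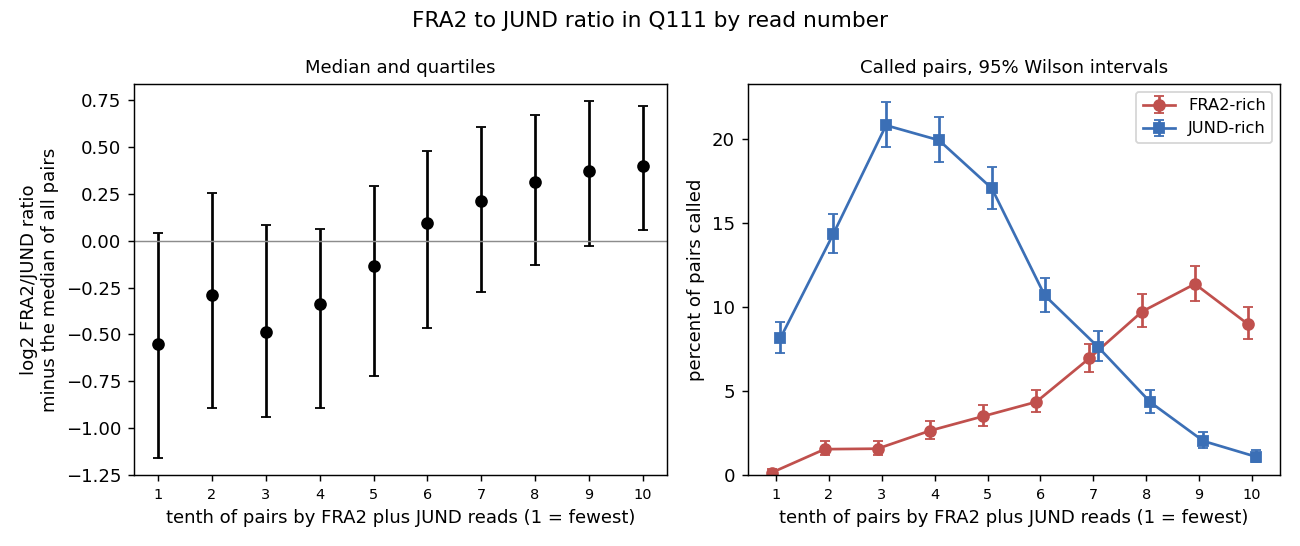
Pairs are split into 10 groups of equal size by FRA2 plus JUND reads in Q111 (x axis). On the left, points are medians of the centred log2 ratio and bars its quartiles, from -0.55 in group 1 to 0.40 in group 10, where the groups use the same reads as the ratio; on the right, the percent of pairs called is given with Wilson intervals, JUND-rich calls peaking at 20.8% in group 3 and FRA2-rich calls at 11.4% in group 9.

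Pairs whose FRA2 and JUND positions lay farther apart carried relatively less FRA2. At 0 to 5 bp the 7593 pairs had a median centred log2 ratio of 0.21, with medians of 70 FRA2 and 33 JUND reads. At 81 to 100 bp the 614 pairs had a median of -0.87, with 24.6 and 24.1 reads. JUND-rich pairs rose from 6.08% (5.57 to 6.65%) to 34.4% (30.7 to 38.2%) between these groups, and FRA2-rich pairs went from 7.53% to 0.49%. Close pairs also held more reads, but the order was present within 4 groups of equal size by reads. In the highest group the median went from 0.47 at 0 to 5 bp to -0.33 at 61 to 80 bp (108 pairs). In group 2 of 4 JUND-rich pairs went from 12.2% to 48.0% (221 pairs at 81 to 100 bp). In the last 10 bp inside the pairing limit 250 pairs had a median of -0.88, and up to 10 bp beyond it 208 mutual neighbours had a median of -0.89. The distance is that between called positions, which are less exact where reads are few.

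**Figure D3:**
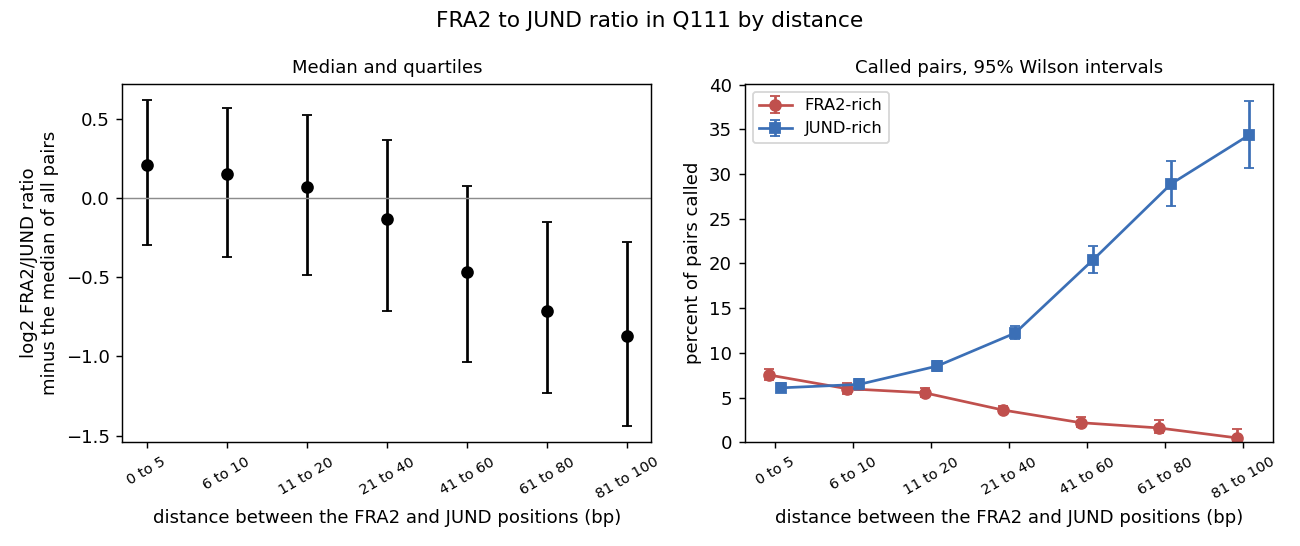
Pairs are grouped by the distance in bp between the FRA2 and the JUND position (x axis). Left, medians and quartiles of the centred log2 ratio fall from 0.21 to -0.87; right, JUND-rich calls rise from 6.08% to 34.4% of pairs and FRA2-rich calls fall from 7.53% to 0.49%, with Wilson intervals.

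The deposited marks of presence, 1 per protein and line, separated the pairs further. In Q111 22665 pairs were marked present for both proteins, and among them 1097 (4.84%) were FRA2-rich and 2086 (9.20%) JUND-rich. The 5817 pairs marked for FRA2 alone had medians of 39 FRA2 and 17 JUND reads, and 690 of them (11.9%) were FRA2-rich. The 816 pairs marked for JUND alone had medians of 19.1 FRA2 and 34 JUND reads, and 776 were JUND-rich. A further 5878 pairs were marked for neither protein in Q111, and these had medians of 13 and 10 reads. All of them carried a mark of either protein in Q7, which follows from listing events present in either line. The marks belong to the same libraries as the ratio, so these counts are a description.

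JUND-rich pairs also had more control reads on average. The mean was 8.13 (FRA2 table) and 9.09 (JUND table) control reads at JUND-rich pairs, against 6.04 and 6.15 at FRA2-rich pairs. Among pairs marked present for both proteins the means were closer. They were 5.96 and 6.89 at JUND-rich pairs, 5.72 and 5.81 at FRA2-rich pairs and 5.50 and 5.85 at pairs not called. Of the 14977 pairs with under 5 control reads in both tables, 7.10% were JUND-rich, and of the 684 pairs with 20 to under 40 by the higher of both, 34.4% were, against 10.6% of all pairs. In the highest of the 4 read groups the JUND-rich share was 1.91% with under 5 control reads and 2.66% with 10 or more, and in group 2 of 4 it was 11.6% and 36.0%. The part of background in the JUND-rich calls was not tested further than by the subtraction given above.

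SOX2, a transcription factor that maintains neural progenitors, was mapped in Q7, and its positions were set beside the pairs. Within 100 bp of the FRA2 position, 12976 pairs had a SOX2 event, and these carried relatively more JUND. JUND-rich pairs made up 12.8% of them (12.3 to 13.4%), against 9.35% (8.97 to 9.74%) of the 22200 other pairs and 10.6% of all. FRA2-rich pairs made up 4.11% (3.78 to 4.46%) of pairs near SOX2, against 5.68% (5.39 to 6.0%) of the others and 5.10% of all. The median was 52 FRA2 reads in both groups, but the quartiles were 24 and 116 near SOX2 and 29.4 and 90 elsewhere. JUND reads had a median of 33 near SOX2 (quartiles 17 and 58) and 28.9 elsewhere (20.9 and 42). Pairs with the nearest SOX2 event over 100 and up to 1000 bp away were JUND-rich in 15.3% of cases.

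The shares near and far from SOX2 were compared at like numbers of reads in Q111. Reads in Q7 were not matched. A SOX2 event lay within 100 bp of 1.05% of pairs in the lowest of 10 groups by Q7 reads and of 76.7% in the highest. In the highest of the 4 read groups, 7.44% (6.68 to 8.28%) of pairs within 100 bp of SOX2 were FRA2-rich, and 14.1% (13 to 15.2%) of pairs over 1000 bp away, while 2.59% (2.14 to 3.12%) and 1.43% (1.09 to 1.86%) were JUND-rich. In group 3 of 4 FRA2-rich shares were 4.92% and 7.68%, and JUND-rich shares 13.3% and 4.71%. In group 2 of 4 JUND-rich calls made up 26.9% (25.2 to 28.7%) near SOX2 and 13.9% (13 to 14.9%) far from it, while FRA2-rich calls made up 3.08% and 2.98%. In group 1 FRA2-rich shares were 0.58% and 1.18%, and JUND-rich shares 14.4% and 10%. Over pairs marked present for both proteins in Q111 the JUND-rich shares were 11% within 100 bp and 7.17% over 1000 bp away. Control reads moved with this grouping, at means of 7.19 near SOX2 and 6.09 far from it in the JUND table, and over pairs with under 5 control reads the JUND-rich shares were 8.90% (8.15 to 9.72%) and 5.33% (4.87 to 5.84%). With the dispersion of 0.05 the JUND-rich shares were 0.82% near SOX2 and 0.50% elsewhere. The FRA2-rich shares were 0.023% (3 pairs, 0.008 to 0.068%) near SOX2 and 0.009% elsewhere, with 5 such calls in all. At a 4-fold limit they were 0.12% (15 pairs, 0.07 to 0.19%) near SOX2 and 0.10% elsewhere, with 38 calls in all. Under both settings the interval near SOX2 includes the share elsewhere, so no direction can be read. SOX2 binding in Q111 was not analysed here, so the grouping describes positions that SOX2 held in Q7.

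**Figure D4:**
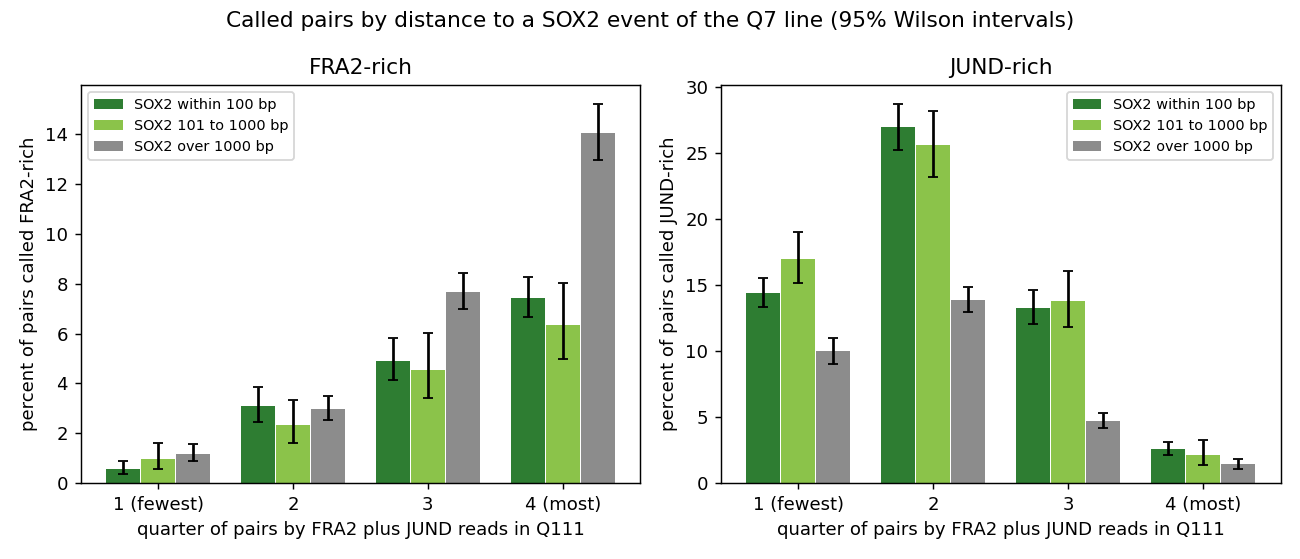
Percent of pairs called FRA2-rich (left) and JUND-rich (right) in Q111 by the 4 groups of reads (x axis) and by distance to a SOX2 event of Q7 (colours), with Wilson intervals. In the highest group FRA2-rich calls reach 14.1% far from SOX2 and 7.44% near it, and in group 2 JUND-rich calls reach 26.9% near SOX2 and 13.9% far from it.

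Of the 10 FRA2-rich pairs whose fold interval lay farthest from 1, 5 kept their call once reads of adjacent events of the same table, up to 250 bp apart, were summed. Positions are those of the FRA2 event in build mm9. At chromosome 17 position 66311318 FRA2 had 294.1 reads and JUND, 75 bp away, 20, a ratio 7.74 times the median (5.03 to 13.2, exact binomial test, adjusted p = 1.35e-29). A second JUND event 191 bp from the first held 48.5 reads, and with these added the ratio was 2.30 times the median. At chromosome 9 position 106108405 there were 112.9 FRA2 and 13.4 JUND reads, 4.39-fold above the median (2.63 to 9.06), with no other event within 250 bp in either table. Chromosome 7 position 4050644 had 45 FRA2 and 3 JUND reads, 7.0-fold above (2.59 to 40.6), with both proteins placed on the same base. At chromosome 1 position 121406282 the reads were 199 and 28, 3.77-fold above (2.57 to 5.91). On chromosome X, position 98667720 had 128 FRA2 and 16 JUND reads, 4.19-fold above (2.55 to 7.76). JUND was above 0 and below its median of 30 reads at all 5, FRA2 was above its median of 52 reads at all but the pair on chromosome 7, and only the pair on chromosome 1 was marked present for JUND.

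The other 5 FRA2-rich pairs of the rule stood next to a second JUND event of the same table that held more reads. At chromosome 10 position 67248427 FRA2 had 217.5 reads and its JUND partner 0.1, which rounds to 0, at least 39.0-fold above the median against a floor of 3 reads (its exact interval begins at 31.6). A JUND event 18 bp from that partner held 209.7 reads, and with adjacent events summed the ratio was 1.41 times the median. Chromosome 3 position 109057125 had 114.2 FRA2 reads against 0.1 for JUND, at least 20.5-fold above by the same floor (exact interval from 16.4). A JUND event 18 bp away held 73.9 reads, and the sum lay at -0.27 on the centred log2 scale. At chromosome 3 position 21722508, 33.4 FRA2 reads stood against 0, at least 5.99-fold above by that floor (exact interval from 4.55). There 27 JUND reads lay 103 bp away, and the sum was at -0.59. The pairs at chromosome 6 position 31050563 (93.8 and 2.5 reads) and chromosome 3 position 65407674 (152.1 and 19.1 reads) fell to 1.52 and 1.31 times the median when summed. At these 5 positions the value depended on how reads were divided between neighbouring events of a table. Over the whole classes, neighbouring events of the same table, of either protein and whatever their reads, were more frequent on the JUND-rich side. Another event of the same table lay within 250 bp at 17.6% (16.4 to 18.9%) of JUND-rich pairs. For FRA2-rich pairs the share was 6.85% (5.77 to 8.12%), against 8.57% of all pairs. With adjacent events summed before pairing, 1549 FRA2-rich and 3521 JUND-rich pairs were called, in place of 1795 and 3739.

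The 10 JUND-rich pairs of the rule kept their call on summing in 9 cases. The exception was chromosome 6 position 71673698, with 0.1 FRA2 and 55 JUND reads, at least 34-fold towards JUND against the floor (exact interval from 26.8). Another FRA2 event 18 bp away held 54.4 reads, and the summed ratio lay at -0.30. Chromosome 11 position 100801062 had the most JUND reads of these pairs, 154.7 against 45 FRA2 reads, 6.33-fold towards JUND (4.56 to 9.13, exact binomial test, adjusted p = 7.19e-31), with no event of either table within 20 kb. At chromosome 8 position 109817262 there were 128.9 JUND and 30.3 FRA2 reads, 7.80-fold towards JUND (5.33 to 12.3), with 20 and 21.9 control reads in the FRA2 and JUND tables. Chromosome 15 position 50529719 had 113.8 JUND and 27.8 FRA2 reads, 7.50-fold towards JUND (4.97 to 11.9) and 3.0-fold with adjacent FRA2 events added. Both proteins were marked present in Q111 at the pairs on chromosomes 11 and 15, and JUND alone at the pair on chromosome 8.

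The remaining JUND-rich pairs of the rule held fewer reads. Chromosome 15 position 81702858 had 72.5 JUND and 15.6 FRA2 reads, 8.42-fold towards JUND, beside 23.0 control reads in the JUND table. At chromosome 7 position 119291776 there were 60 and 11.7 reads, 9.21-fold (2.71-fold when summed), and at chromosome 5 position 114820717 48.4 and 10.4 reads, 8.33-fold. At chromosome 10 positions 94977730 (38.9 and 6.3 reads) and 43621586 (30.9 and 3 reads) and chromosome 14 position 26544846 (37 and 6 reads) FRA2 reads were below the FRA2 control reads of 11.1, 11.3 and 11.4, as they were at 5 of the 10 pairs. SOX2 had an event within 100 bp of 7 of these 10 pairs, at 16 to 72 bp, and of 4 of the 10 FRA2-rich pairs. Over the whole classes this held for 44.5% (42.9 to 46.1%) of JUND-rich and 29.7% (27.6 to 31.8%) of FRA2-rich pairs, against 36.9% of all pairs.

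The positions with the most reads were not the ones with the most extreme ratios. At chromosome 15 position 73749843 there were 1078.6 FRA2 and 235.2 JUND reads, 2.47-fold above the median (2.15 to 2.86), and at chromosome 8 position 81674628 there were 1016.8 and 217 reads, 2.52-fold above (2.18 to 2.94). At chromosome 8 position 70681285 the 1008 FRA2 and 297 JUND reads gave 1.83-fold, below the limit. At chromosome 11 positions 3053864 and 3086860 FRA2 had 4030.7 and 1489 reads and JUND 1020.7 and 649, 2.13-fold and 1.23-fold above the median, with over 60 control reads in each table at both. The call at position 3053864 was lost when libraries were scaled by all reads in events, at 0.86 on the centred log2 scale.

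The ratio varied little along the genome. Chromosome medians ran from -0.09 on chromosome 10 to 0.08 on chromosome X, leaving aside a single mitochondrial pair. FRA2-rich shares ran from 3.29% on chromosome 16 to 7.01% on chromosome 6, and JUND-rich shares from 6.61% on chromosome X to 14.3% on chromosome 19. Of 1411 windows of 1 Mb with at least 10 pairs, the middle 90% had medians between -0.44 and 0.38. The highest was 123 to 124 Mb of chromosome 3, with a median of 0.80 over 12 pairs, 11 of them above 0, and the next were on chromosomes 8 (115 to 116 Mb, 0.68), 18 (32 to 33 Mb, 0.64), 3 (92 to 93 Mb, 0.63) and 5 (21 to 22 Mb, 0.63). The lowest were chromosome 17 at 33 to 34 Mb (-1.10, 15 pairs) and 57 to 58 Mb (-1.07, 11 pairs), chromosome 13 at 67 to 68 Mb (-1.05), chromosome 7 at 123 to 124 Mb (-0.87) and chromosome 15 at 89 to 90 Mb (-0.86, with means of 14.7 and 15.2 control reads). In each of these 10 windows the Q7 libraries gave a median on the same side of their own centre, from 0.14 to 0.82 for the highest and from -0.82 to -0.29 for the lowest. Neighbouring pairs under 1 kb apart had a Pearson r of 0.17 in the centred ratio (3300 neighbours, which share both libraries), and it was 0.04 at 1 to 10 kb.

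The Q7 libraries gave the same direction at most called pairs. Of the FRA2-rich pairs 90.6% (89.2 to 91.9%) lay above the Q7 median as well, against 74.1% (73.5 to 74.8%) of all pairs above the Q111 median, and their median went from 1.19 in Q111 to 0.66 in Q7. Of the JUND-rich pairs 94.0% (93.2 to 94.8%) lay below the Q7 median, against 74.1% of all pairs below the Q111 median, and their median went from -1.41 to -0.90. By the same rule applied to Q7 reads, 338 of the 1795 FRA2-rich pairs (18.8%) and 1339 of the 3739 JUND-rich pairs (35.8%) were called on the same side, where 3.43% and 7.19% of all pairs were called in Q7, and 3 and 1 were called on the opposite side. Among pairs marked present for both proteins in both lines the direction was the same at 787 of 809 FRA2-rich and 1079 of 1113 JUND-rich pairs. Each table gives 1 position per event for both lines, so a pair has the same positions in Q7. The smaller Q7 medians belong to pairs that were chosen on their Q111 reads.

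**Figure D5:**
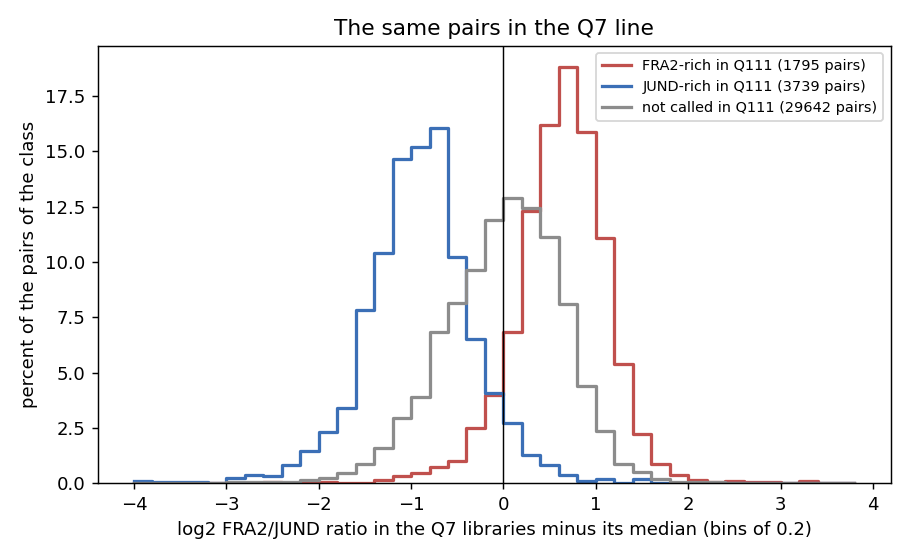
Distribution of the log2 FRA2 to JUND ratio in the Q7 libraries, centred on its own median (x axis, bins of 0.2), for pairs called FRA2-rich, JUND-rich or neither in Q111 (percent of each class on the y axis). FRA2-rich pairs centre on 0.66 and JUND-rich pairs on -0.90, on the sides they took in Q111.

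The ratio itself was shown to differ between Q111 and Q7 at few pairs. A two-sided Fisher exact test on the 4 read numbers, adjusted over all pairs, passed at 92 of 35176 pairs (0.262%), with the FRA2 share higher in Q111 at 69 and lower at 23, and it gave p below 0.05 before adjustment at 3325. The test used unscaled reads, and the median uncentred log2 ratio was 0.89 in Q111 and 0.79 in Q7. With each line on its own median, a setting chosen after seeing the data, 69 pairs passed, 36 with a higher and 33 with a lower FRA2 share in Q111, so the surplus of higher shares followed the scaling. Of the 92 pairs 38.0% (28.8 to 48.3%) had another event of the same table within 250 bp, against 8.57% of all pairs, and with such events summed 57 passed. A pair that missed this test may still differ between the lines.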

How the data were processed

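ChIP-seq of FRA2 and JUND in Q111 was compared, with Q7 and SOX2 as references. Reads were aligned with Bowtie 0.12.7 to mm9 per the submitters' processing notes, and the deposited tables are named for the GPS event caller, with no settings stated in the sources used here. The IP columns are expected counts (estimated counts of reads per event, unscaled) per the file headers, and were rounded to whole numbers before testing. Control columns are a signal, control reads times a factor per library, judged from the deposited values. A −log10 q-value and a mark of presence per line were deposited by the authors, per the file headers. The other 26 value columns were left out.

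Pairing, ratio and calls are as given above (Python 3.11.15, SciPy 1.17.1, pandas 2.3.3). Scripts were tested on simulated data. Intervals of folds are 95% Clopper-Pearson, those of percentages Wilson. They cover counting error only, since PCR reads are not independent molecules. For a fold against a count that rounds to 0, a floor of 3 reads per library was used. Named pairs are the 10 per direction with the farthest intervals (under 40 control reads) and the 5 with most reads, with 5 windows per direction. Members and lists were chosen with earlier results of these data known. No genome or annotation of mm9 was used here, so no sequence, gene or motif is given. Alternatives changed scaling, filters, distances, background, spread and limits.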

Additional observations from a re-analysis of the deposited data

Results flagged for a closer look

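The FRA2 to JUND ratio differed between Q111 and Q7 at 92 pairs by the Fisher exact test given above, and 6 of the named pairs are among them. The differences below are Q111 minus Q7 on the centred log2 scale with 0.5 reads added, so that those that rest on a count near 0 are no measured fold. At 3 of the 6, the reads of 1 protein lay at an event 18 bp away in one line. At chromosome 10 position 67248427 the difference was 8.61: 0.1 reads of the JUND partner in Q111 stood against 189.9 in Q7, and 209.7 against 3 at the JUND event 18 bp away. At chromosome 3 position 109057125 it was 6.16, with 0.1 JUND reads in Q111 against 65.7, and 73.9 against 0.3 at the JUND event next to it. At chromosome 6 position 71673698 it was -6.07, with 0.1 FRA2 reads in Q111 against 53.2, and 54.4 against 0 at the FRA2 event next to it. At chromosome 3 position 21722508 it was 6.06, with no JUND reads in Q111 and 69 in Q7, and 27 and 13 at a JUND event 103 bp away. At chromosome 17 position 66311318 it was 1.43, where 20 JUND reads in Q111 stood against 82.5 in Q7. The JUND event 191 bp from that partner held 48.5 reads in Q111 against 34.3 in Q7, and FRA2 had 294.1 against 412.2. At chromosome 11 position 3053864 it was 0.67, with over 100 control reads per table in Q111. The part of event placement or background in these differences was not tested beyond the summing of adjacent events.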

How the results depend on the processing

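Each group is 1 pooled library. No paired analysis was possible because no group has separate replicates, and for the same reason none could be left out. Values follow in the order FRA2-rich count, JUND-rich count, percent of pairs near SOX2 that were FRA2-rich and JUND-rich, and percent of FRA2-rich and JUND-rich pairs with the same direction in Q7. As reported these are 1795, 3739, 4.11%, 12.8%, 90.6% and 94.0%, and values that are not printed moved by less than 1.5 times (counts) or stayed within their Wilson interval.

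Scaling by all reads in events gave 714 FRA2-rich pairs, 1.48% and 18.3% near SOX2, and 85.6% and 95.3% in Q7. The median of pairs marked for both proteins gave 3.24% and 14.1% near SOX2. The median of the highest of 4 read groups gave 361 and 7068 pairs, 0.76% and 22.4%, and 76.5% and 96.0%. Centring within 10 read groups, chosen after seeing the data, gave 2.81% and 10.5%, and 79.8% and 89.3%. At least 50 reads gave 5.52% and 12.2%. Pairs marked for both proteins alone gave 1097 and 2109 pairs, 11.1% JUND-rich near SOX2, and 93.1% and 92.5%. Pairing at 50 bp gave 3.40% and 12.2%. Subtracting control reads gave 2834 FRA2-rich pairs, 6.28% and 14.7%, 84.3% and 91.1%, and 1054 pairs differing between the lines. Summing adjacent events gave 3.47% FRA2-rich near SOX2 and 57 differing pairs. The dispersion of 0.05 gave 5 and 216 pairs, 0.023% and 0.82%, and 60% and 98.1%. A −log10 q of at least 5 gave 553 and 802 pairs, 6.89% JUND-rich near SOX2, and 93.7% and 92.0%. The 1.5-fold limit gave 4581 FRA2-rich pairs, 11.95% and 16.8%, and 92.5% for JUND-rich in Q7. The 4-fold limit gave 38 and 488 pairs, 0.12% and 1.97%, and 68.4% for FRA2-rich in Q7. SOX2 within 1000 bp gave 13.5% JUND-rich. Of the named pairs, whose alternatives were chosen after seeing the data, 2 changed side when adjacent events were summed, to -0.27 and -0.59 (chromosome 3 positions 109057125 and 21722508). Grouping pairs by their Q7 reads, also chosen after seeing the data, turned the sign of the median ratio in read group 6 of 10, from 0.09 to -0.0067, and in no other read group. Where a value moved with a filter or a stricter limit fewer pairs or calls entered, and otherwise the cause was not tested. The JUND-rich share was higher near SOX2 than elsewhere under each of these settings. The FRA2-rich share was lower near SOX2 except with the dispersion of 0.05 (0.023% and 0.009%) and the 4-fold limit (0.12% and 0.10%). These 2 exceptions rest on 5 and 38 FRA2-rich calls, too few to read a direction. With a −log10 q of at least 5 the FRA2-rich shares were 4.17% (3.67 to 4.75%) near SOX2 and 4.51% elsewhere. That interval includes the share elsewhere, so no direction can be read there either.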

Other observations

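Events left without a partner held fewer reads than paired ones in both tables. Of the 47328 FRA2 events marked present in Q111, 60.2% (59.7 to 60.6%) were paired, and of the 28679 JUND events so marked, 81.9% (81.4 to 82.3%). Unpaired FRA2 events, present or not, had a median of 24 reads in Q111 (quartiles 16 and 34) against 52 at paired events, and unpaired JUND events a median of 23 (14 and 30.9) against 30. The strongest unpaired event marked present held 1331 reads for FRA2 and 209.7 for JUND, the latter being the JUND event next to the pair at chromosome 10 position 67248427.

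The share of FRA2-rich pairs was also compared between lone and neighbouring pairs. In the highest of the 4 read groups, 12% (10.9 to 13.1%) of the 3563 pairs with no other pair within 10 kb were FRA2-rich, and 8.94% (8.18 to 9.75%) of the 5058 pairs with 1 to 4 others, against 10.1% of all pairs of that group. In group 3 the shares were 7.15% and 5.97%, in group 2 2.83% and 3.05%, and in group 1 0.86% and 0.87%. In the highest group SOX2 events were within 100 bp of 38.5% of lone pairs and 51.6% of the others, and the part of SOX2 in this difference was not tested.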
